A study of Mus musculus with 18 samples.

Results

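The genes described here are 10 members of the lipid efflux program that the nuclear receptors LXRα and PPARγ control in phagocytes: the receptor genes Nr1h3 and Pparg, the cholesterol transporters Abca1 and Abcg1, the apolipoproteins Apoe and Apoc1, the lipoprotein lipase Lpl, the lipid droplet coat gene Plin2, and the LXR target genes Srebf1 and Mylip. They were chosen by symbol and by no rule on measured values, although with earlier results of these data known. All 10 were found among the 54446 genes of the table through their Ensembl identifiers. Expression was measured in 18 RNA-seq libraries of mouse eosinophils that had all been cultured for 18 h with apoptotic cells (ACs), at 5 ACs per eosinophil. The eosinophils came from the peritoneal cavity of Il5Tg mice, a line whose interleukin-5 transgene gives large numbers of eosinophils, the labels give the strain as C57BL/6, and the ACs were wild-type thymocytes in which dexamethasone had induced apoptosis. The age of the Il5Tg mice is not given in the sources used here.

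The Type 1 experiment held 12 libraries in 4 conditions: no further stimulus (ACs), E. coli, IFN-γ, and both of these (the combination). In the combination IFN-γ came first and E. coli after it, according to the study. The IL-4 experiment held 6 libraries, with no further stimulus (ACs) or with IL-4. Each condition had 3 libraries and every one of them included ACs, so a condition is named here by what was added to the ACs. Each stimulus was set against the ACs libraries of its own experiment. Eosinophils without ACs are not analysed here. After culture the cells were recovered with anti-Siglec-F beads, and libraries were made by CEL-Seq2, a method that reads transcripts from their 3′ ends. Values are normalized counts (reads on a gene divided by a size factor of the library). A change was called past the threshold if its Benjamini-Hochberg adjusted p over all genes tested (limma) was under 0.05 and its size at least 1.5-fold, the limits used by the study.

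A phagocyte that digests an apoptotic cell takes in that cell's membrane cholesterol and fatty acids. Oxysterols made from the cholesterol activate LXRα (Nr1h3) and LXRβ, which act with RXR partners on target genes for export, and fatty acid derivatives activate PPARγ (Pparg), which raises lipid uptake, storage and, in macrophages, Nr1h3 itself. ABCA1 and ABCG1 move cholesterol out of the cell onto apolipoproteins such as APOE, while LPL and PLIN2 serve the uptake and storage of fatty acids. In macrophages this response is known to accompany efferocytosis. The comparisons ask how type 1 stimuli and IL-4 alter these transcripts in eosinophils given apoptotic cells.

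The libraries held between 779421 and 7782072 reads on genes (median 4461121). Both libraries numbered 3 in the IL-4 experiment were shallow, at 849705 (IL-4) and 779421 reads (ACs), so that 1 read stood for a normalized count of 5.14 and 5.36 in them. The labelled cell type was checked with 8 eosinophil markers, none of which was at 0 in all libraries of a condition. Siglecf, Ccr3 and Alox15 had group means between 1630.1 and 11743, whereas the granule protein gene Epx had group means of 0.460 to 14.1. Epx ranged from 0 to 1.38 with the combination, so a value above 0 is a weak check there. Group means were also low for Ear1 (6.48 to 68.7), Ear2 (2.14 to 223) and Prg2 (74.5 to 243). Macrophage markers were also present in all conditions: the sum over 12 of them, including the peritoneal macrophage genes Gata6 and Timd4, ranged from 19168 to 48076 per library, and none was at 0 in a condition. The sum over 12 thymocyte markers, which the ACs would carry, was 45.5 to 180.3, with Rag1, Rag2 or Dntt at 0 in some conditions. In these bulk samples fewer cells of a type and less RNA per cell cannot be told apart.

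Among the members, 9 of 10 were tested in each experiment, since Pparg had a mean normalized count below the minimum of 10. IFN-γ gave the main response: 6 of the 9 (Abca1, Lpl, Nr1h3, Plin2, Apoc1 and Apoe) were past the threshold, all higher than with ACs alone, beside 21.4% of all 10166 genes tested. The median log2 fold change of the 9 was 1.14, beside 0.00 for all genes tested. E. coli gave 0 of 9 with limma, beside 10.3% of all genes, and a median log2 change of -0.21. The combination gave 2 of 9 (Abca1 and Srebf1, both higher), beside 31.9% of all genes, with a median of 0.06. IL-4 gave 0 of 9, beside 1.09% of the 10669 genes tested in that experiment, with a median of -0.29. Both counts of 0 were also 0 with edgeR and with DESeq2 on the recovered reads. With IL-4, however, array weights called 1 member (Mylip, 0.71, adjusted p = 0.0031, limma), and leaving out the 2 shallow libraries called 2 (Mylip and Pparg). Pparg was tested in that last fit only through the IL-4 libraries in which it was high, so its call is not used as support. An unadjusted p under 0.05 was reached by 3 of the 9 with E. coli (Abcg1, Apoe and Plin2) and by 1 with IL-4 (Abca1). The 3 Type 1 comparisons share their ACs libraries.

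**Figure D1:**
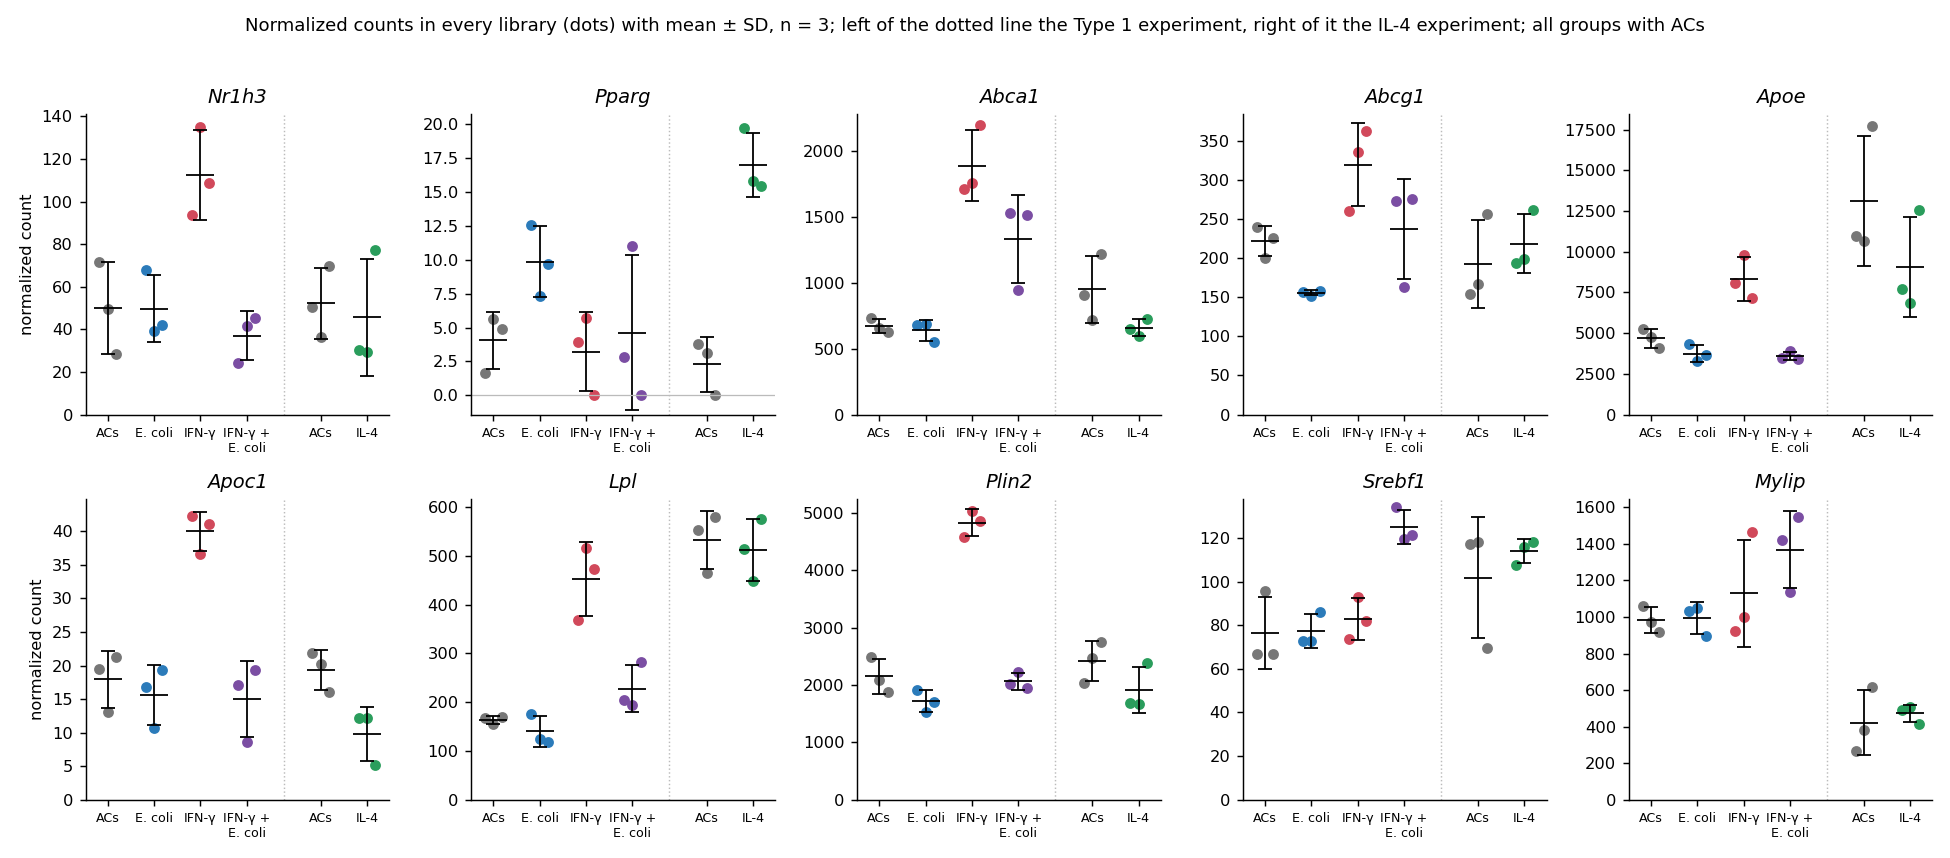
Normalized counts of the 10 members (vertical axis, from 0 or from just below it for Pparg) in each of the 18 libraries (dots) by condition, with the mean and SD of 3 libraries as a bar. The IFN-γ libraries lie above all ACs libraries of the Type 1 experiment for Nr1h3, Abca1, Abcg1, Apoe, Apoc1, Lpl and Plin2, and the IL-4 libraries lie above their ACs libraries for Pparg.

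Nr1h3 (ENSMUSG00000002108.10, chromosome 2 of GRCm38, 91184061 to 91202834, minus strand) encodes LXRα, the receptor of the program. Its normalized counts were 71.6, 49.7 and 28.5 with ACs, 67.8, 39.2 and 42.2 with E. coli, 93.7, 135 and 109 with IFN-γ and 24.2, 41.5 and 45.5 with the combination. All IFN-γ libraries stood above those of the other Type 1 conditions. Nr1h3 rose by 1.23 (SE 0.33) on the log2 scale with IFN-γ over ACs (adjusted p = 0.0080, limma). The ACs libraries spread widely, and without ACs replicate 3, the lowest of them, the change was 0.89 with an adjusted p of 0.063. In the IL-4 experiment its values were 50.4, 36.6 and 69.7 with ACs and 30.1, 29.5 and 77.1 with IL-4, and the groups overlapped (log2 change -0.29, SE 0.42).

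Pparg (ENSMUSG00000000440.12, chromosome 6, 115360951 to 115490399, plus strand) encodes PPARγ, a receptor that IL-4 is known to raise in macrophages. It was close to the limit of detection. The normalized counts were 1.63, 5.63 and 4.89 with ACs, 12.6, 7.36 and 9.68 with E. coli, 3.96, 5.73 and 0 with IFN-γ and 2.85, 10.99 and 0 with the combination. In the IL-4 experiment they were 3.76, 3.11 and 0 with ACs and 19.7, 15.8 and 15.4 with IL-4, which are 9 reads in all against 67. The groups did not overlap, and the ratio of means was 7.41. In the shallow pair the 3 reads with IL-4 cannot be told from the 0 with ACs, since 0 reads allow a normalized count of up to 16.1 there.

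Whether the Pparg difference passed depended on the filter, the tool and those shallow libraries. With no filter on low values the log2 change was 2.45 with edgeR (adjusted p = 0.018), 2.73 with limma (adjusted p = 0.58) and 2.53 with DESeq2 (adjusted p = 0.36). Without the 2 shallow libraries, an alternative chosen after seeing the data, the log2 change with no filter was 2.08 with limma (adjusted p = 0.12) and 2.37 with edgeR (adjusted p = 0.00049). With the filter limma gave an adjusted p of 0.024 for these libraries, but Pparg reached the minimum mean there only through the IL-4 libraries in which it was high, so that call is not used as support. For E. coli, where the 3 values also lay above those with ACs, the log2 change with no filter was 1.29 with edgeR (adjusted p = 0.41).

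Abca1 (ENSMUSG00000015243.4, chromosome 4, 53030787 to 53159895, minus strand) encodes the transporter that loads cholesterol onto lipid-poor apolipoproteins. Its normalized counts were 736, 654 and 630.4 with ACs and 681, 687 and 548 with E. coli. They reached 1713, 1756 and 2199.8 with IFN-γ and 1531, 944 and 1515 with the combination. Every library with IFN-γ exceeded every library without it in the Type 1 experiment. The log2 change over ACs was 1.48 (SE 0.16, adjusted p = 1.3e-06, limma) with IFN-γ and 0.95 (SE 0.16, adjusted p = 0.00014) with the combination. With IL-4 the values were 653, 595 and 725 against 911, 719 and 1222 with ACs, overlapping by 1 library (log2 change -0.50, 95% interval -0.93 to -0.08, adjusted p = 0.43, limma).

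The window around the Abca1 transcription start (RefSeq, GRCm38.p6) was searched for the LXR element DR4, a direct repeat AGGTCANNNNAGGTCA with 4 bases between the repeats, on both strands with up to 3 mismatches in the 12 fixed bases. It held 1 such site, on the opposite strand of the gene, 67 to 52 bases before the start. One of the 3 Srebf1 windows held a site that shared 14 of its 16 bases, 182 to 167 bases before the start. The letters common to both, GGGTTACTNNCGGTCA, were found in 3 of the 32851 windows of 300 bases in the table (0.00913%), those of Abca1, Srebf1 and Fasn, the fatty acid synthase gene, which is on the list of other LXR targets. Abca1 and Srebf1 are among the 3 because the letters were taken from them. The windows are shown because they place a near-identical site at members whose changes differed, with the site in capitals, read on the strand of the gene and therefore as the reverse complement of the letters above:
Abca1, chr4:53159846-53160145, minus strand: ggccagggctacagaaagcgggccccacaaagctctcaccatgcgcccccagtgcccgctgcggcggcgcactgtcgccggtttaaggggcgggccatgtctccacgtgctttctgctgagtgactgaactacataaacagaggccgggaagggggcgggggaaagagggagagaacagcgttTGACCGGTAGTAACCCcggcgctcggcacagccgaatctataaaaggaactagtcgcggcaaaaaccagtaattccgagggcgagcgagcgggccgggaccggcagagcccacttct
Srebf1, chr11:60210422-60210721, minus strand: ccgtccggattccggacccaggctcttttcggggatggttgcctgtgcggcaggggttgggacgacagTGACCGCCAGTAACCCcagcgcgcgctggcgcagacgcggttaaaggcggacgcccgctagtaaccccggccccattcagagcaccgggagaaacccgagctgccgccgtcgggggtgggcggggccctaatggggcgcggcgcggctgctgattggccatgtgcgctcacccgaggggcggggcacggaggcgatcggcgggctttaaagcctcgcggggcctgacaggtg
Fasn, chr11:120824498-120824797, minus strand: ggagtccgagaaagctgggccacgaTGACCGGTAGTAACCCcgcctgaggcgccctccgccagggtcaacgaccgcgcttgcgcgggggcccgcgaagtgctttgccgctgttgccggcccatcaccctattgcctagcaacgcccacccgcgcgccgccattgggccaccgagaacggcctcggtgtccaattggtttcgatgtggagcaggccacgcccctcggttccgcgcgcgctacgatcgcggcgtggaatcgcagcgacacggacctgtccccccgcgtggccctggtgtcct
A match to DR4 at this stringency was common, at 21.9% of all windows, and a match is a description of the letters only. Windows were at hand for 7 of the 10 members (14 windows). The other matches to DR4 were 1 of the 3 Pparg windows, and the DR1 element used by PPARγ (AGGTCANAGGTCA, up to 3 mismatches) matched the Plin2 window and 1 of 3 Apoe windows, beside 24.6% of all windows. Abcg1, Apoc1 and Lpl had no entry.

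Srebf1 (ENSMUSG00000020538.15, chromosome 11, 60199089 to 60222581, minus strand) encodes the transcription factor SREBP-1, which drives fatty acid synthesis. It did not follow Abca1 with IFN-γ. The normalized counts were 66.7, 95.7 and 66.9 with ACs, 72.8, 72.8 and 86.2 with E. coli, and 73.9, 92.8 and 82.1 with IFN-γ, groups that all overlapped, and 134, 119.7 and 121 with the combination, above all of them. The log2 change over ACs was 0.13 (95% interval -0.28 to 0.55) with IFN-γ and 0.72 (SE 0.20, adjusted p = 0.0070, limma) with the combination. After rescaling to a common upper quartile the latter was 0.58 (adjusted p = 0.023), just under 1.5-fold. Srebf1 was 102 ± 27.8 with ACs and 114 ± 5.50 with IL-4 (SD, n = 3). Fasn was below the filter in both experiments, with group means of 7.94 to 11.3.

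Mylip (ENSMUSG00000038175.10, chromosome 13, 45389742 to 45412022, plus strand) encodes a ubiquitin ligase that LXR induces and that limits the uptake of lipoproteins. It was 1059, 974 and 916 with ACs, 1035, 1051 and 895 with E. coli, 925, 1002 and 1463 with IFN-γ and 1419.8, 1139.7 and 1548 with the combination. The last group lay above the ACs libraries, with a log2 change of 0.47 (SE 0.15, adjusted p = 0.022, limma), which is under 1.5-fold; without the combination replicate 2, the lowest of that group, it was 0.60 and past the threshold. In the IL-4 experiment Mylip was 268, 382 and 617 with ACs and 493, 507 and 416 with IL-4, so that the shallow libraries held the highest value of one group and the lowest of the other. Its log2 change there was 0.24 (adjusted p = 0.79, limma), and 0.64 (adjusted p = 0.027) without the 2 shallow libraries.

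Abcg1 (ENSMUSG00000024030.6, chromosome 17, 31057675 to 31117988, plus strand) encodes the transporter that passes cholesterol to mature HDL. Its counts were 239.9, 200.8 and 226 with ACs, 157, 152 and 158 with E. coli, 261, 336 and 363 with IFN-γ and 274, 164 and 276 with the combination. The E. coli libraries lay below and the IFN-γ libraries above those with ACs, but neither change passed the threshold (log2 change -0.51, adjusted p = 0.085, and 0.52, adjusted p = 0.049 but under 1.5-fold, limma). Between IFN-γ and E. coli the difference was 1.02 (SE 0.19, adjusted p = 0.00053). With IL-4 Abcg1 was 219 ± 37.7 against 193 ± 56.3 with ACs (SD, n = 3).

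Apoe (ENSMUSG00000002985.16, chromosome 7, 19696109 to 19699188, minus strand), the apolipoprotein that accepts exported cholesterol, was 5224, 4790.0 and 4059.8 with ACs and 4317, 3261 and 3649 with E. coli. It was 8057, 9796 and 7162 with IFN-γ and 3481, 3898 and 3398 with the combination. IFN-γ stood above all other Type 1 libraries, and the combination lay below the ACs libraries. The log2 change over ACs was 0.83 (SE 0.13, adjusted p = 0.00011, limma) with IFN-γ and -0.38 (adjusted p = 0.030, under 1.5-fold) with the combination. Apoe was higher in the IL-4 experiment, at 10942, 10666 and 17725 with ACs and 7738, 6869.9 and 12541 with IL-4, the largest value of each group being that of the shallow library. The change with IL-4 was -0.54 (adjusted p = 0.53, limma), and -0.57 (adjusted p = 0.0055) without the 2 shallow libraries, still under 1.5-fold.

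Apoc1 (ENSMUSG00000040564.14, chromosome 7, 19689481 to 19692660, minus strand), the neighbour of Apoe in the same apolipoprotein cluster, was present at few reads. It was 19.5, 13.1 and 21.2 with ACs, 16.7, 10.6 and 19.4 with E. coli, 42.2, 36.7 and 41.0 with IFN-γ and 17.1, 8.55 and 19.3 with the combination. Only the IFN-γ libraries stood apart, by a log2 change of 1.14 over ACs (SE 0.38, adjusted p = 0.033, limma). The call was lost when any 1 of the 6 libraries was left out (log2 change 0.939 to 1.264). In the IL-4 experiment 21.8, 20.2 and 16.1 with ACs lay above 12.2, 12.1 and 5.14 with IL-4, where the lowest value of each group rests on 3 reads and on 1 read (log2 change -0.99, SE 0.56, adjusted p = 0.61, limma).

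Lpl (ENSMUSG00000015568.16, chromosome 8, 68880491 to 68907448, plus strand) encodes the lipase that frees fatty acids from lipoproteins. Its counts were 167, 155 and 169 with ACs, 177, 125 and 118 with E. coli, 368, 516 and 472 with IFN-γ and 205, 194 and 283 with the combination. Both groups with IFN-γ exceeded both groups without it. The log2 change over ACs was 1.45 (SE 0.19, adjusted p = 7.8e-06, limma) with IFN-γ and 0.46 (adjusted p = 0.060) with the combination. Lpl in the IL-4 experiment was already at 552, 465 and 579 with ACs, 3.25 times the mean of the ACs libraries of the Type 1 experiment, and 513, 449 and 576 with IL-4. That change was -0.05, with a 95% interval of -0.40 to 0.29.

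Plin2 (ENSMUSG00000028494.12, chromosome 4, 86648386 to 86670060, minus strand) encodes the coat protein of lipid droplets and is a target gene of the PPAR receptors. It was 2485, 2093 and 1876 with ACs, 1910.4, 1533 and 1706 with E. coli, 4574, 5038 and 4866 with IFN-γ and 2009.9, 2232 and 1952 with the combination. Only IFN-γ stood apart from the ACs libraries, and its 3 values were close together. The log2 change was 1.17 (SE 0.12, adjusted p = 3.6e-07, limma) with IFN-γ and -0.05 (95% interval -0.30 to 0.20) with the combination. With IL-4 it was 1685, 1676 and 2385 against 2041, 2470.2 and 2745 with ACs, an overlap of 1 library (log2 change -0.35, adjusted p = 0.55).

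**Figure D2:**
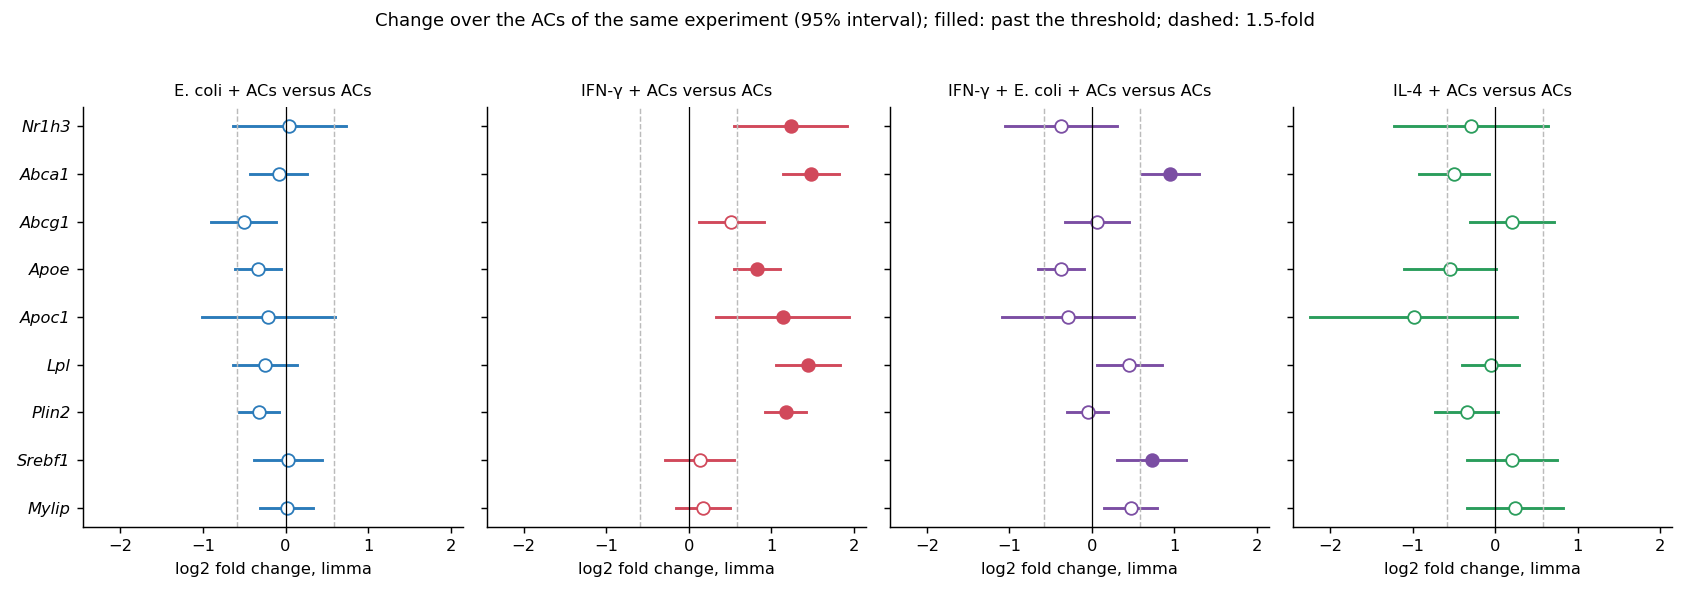
Log2 fold change (horizontal axis, limma on log2 of the normalized count plus 1) over the ACs libraries of the same experiment for the 9 members tested, with 95% intervals, filled where past the threshold. With IFN-γ 6 of 9 points are filled, with the combination 2, and with E. coli or IL-4 0.

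Separation of the libraries was also counted without a test. With IFN-γ 7 of 9 members lay all above the ACs libraries, beside 42.9% of all genes tested that lay apart in either direction. With the combination 5 of 9 members lay apart, beside 48.8%. With E. coli and with IL-4 it was 1 of 9 in each, Abcg1 and Apoc1 respectively and both lower, beside 38.3% and 17.3%.

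Most of the genes that were higher with IFN-γ than with ACs were lower with the combination than with IFN-γ. Both comparisons use the same IFN-γ libraries, as do the comparison of IFN-γ with E. coli and the interaction test. These results are therefore not independent of each other. Between the combination and IFN-γ, 5 of 9 members were lower and 1 was higher, beside 14.6% of all genes tested, with a median log2 difference of -0.99 beside -0.03 for all genes. The 5 were Nr1h3 at -1.61 (SE 0.33, adjusted p = 0.0016, limma), Apoc1 at -1.43 (adjusted p = 0.012), Plin2 at -1.23 (adjusted p = 1.0e-06), Apoe at -1.21 (adjusted p = 4.4e-06) and Lpl at -0.99 (adjusted p = 0.00086). Srebf1 was the gene that was higher, at 0.59 (adjusted p = 0.042), and it no longer passed with a pseudocount of 5, with no filter, with the replicate block, after upper quartile rescaling, with array weights, with all 18 libraries in 1 fit, or when any 1 of the 6 libraries was left out. Abca1 was lower by a log2 difference of -0.53 (adjusted p = 0.028), which is under 1.5-fold.

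Between the combination and E. coli alone, 3 of 9 members were higher with the combination, beside 19.4% of all genes tested: Abca1 by 1.03 (SE 0.16, adjusted p = 0.00013, limma), Lpl by 0.70 (adjusted p = 0.0095) and Srebf1 by 0.69 (adjusted p = 0.015). Apoe, Apoc1, Nr1h3 and Plin2 had differences of -0.05, -0.09, -0.42 and 0.27, with adjusted p of 0.82, 0.90, 0.38 and 0.10. Between IFN-γ and E. coli 7 of 9 members were higher with IFN-γ, beside 16.6% of all genes in either direction. The largest of these differences were 1.69 for Lpl, 1.56 for Abca1 and 1.496 for Plin2.

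Whether the effects of IFN-γ and E. coli added up was tested as an interaction, the log2 change with both stimuli minus the sum of the changes with each. It was past the threshold for 3 of 9 members, all negative, beside 7.44% of all genes tested. The interaction was -0.88 for Apoe (SE 0.19, adjusted p = 0.0072, limma), -0.90 for Plin2 (SE 0.17, adjusted p = 0.0023) and -1.65 for Nr1h3 (SE 0.46, adjusted p = 0.033). Apoc1 at -1.22 (95% interval -2.36 to -0.09, adjusted p = 0.19) and Lpl at -0.75 (-1.30 to -0.20, adjusted p = 0.089) did not pass after adjustment, although their unadjusted intervals left out 0. Abca1 at -0.45 (-0.94 to 0.04), Srebf1 at 0.56 (-0.03 to 1.15), Mylip at 0.28 (-0.18 to 0.74) and Abcg1 at 0.05 (-0.51 to 0.61) did not pass either. With all 18 libraries in 1 fit the interaction was past the threshold for 1 member, so not all 3 calls held there. On leaving out 1 library it was past the threshold for 2 to 4 members.

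**Figure D3:**
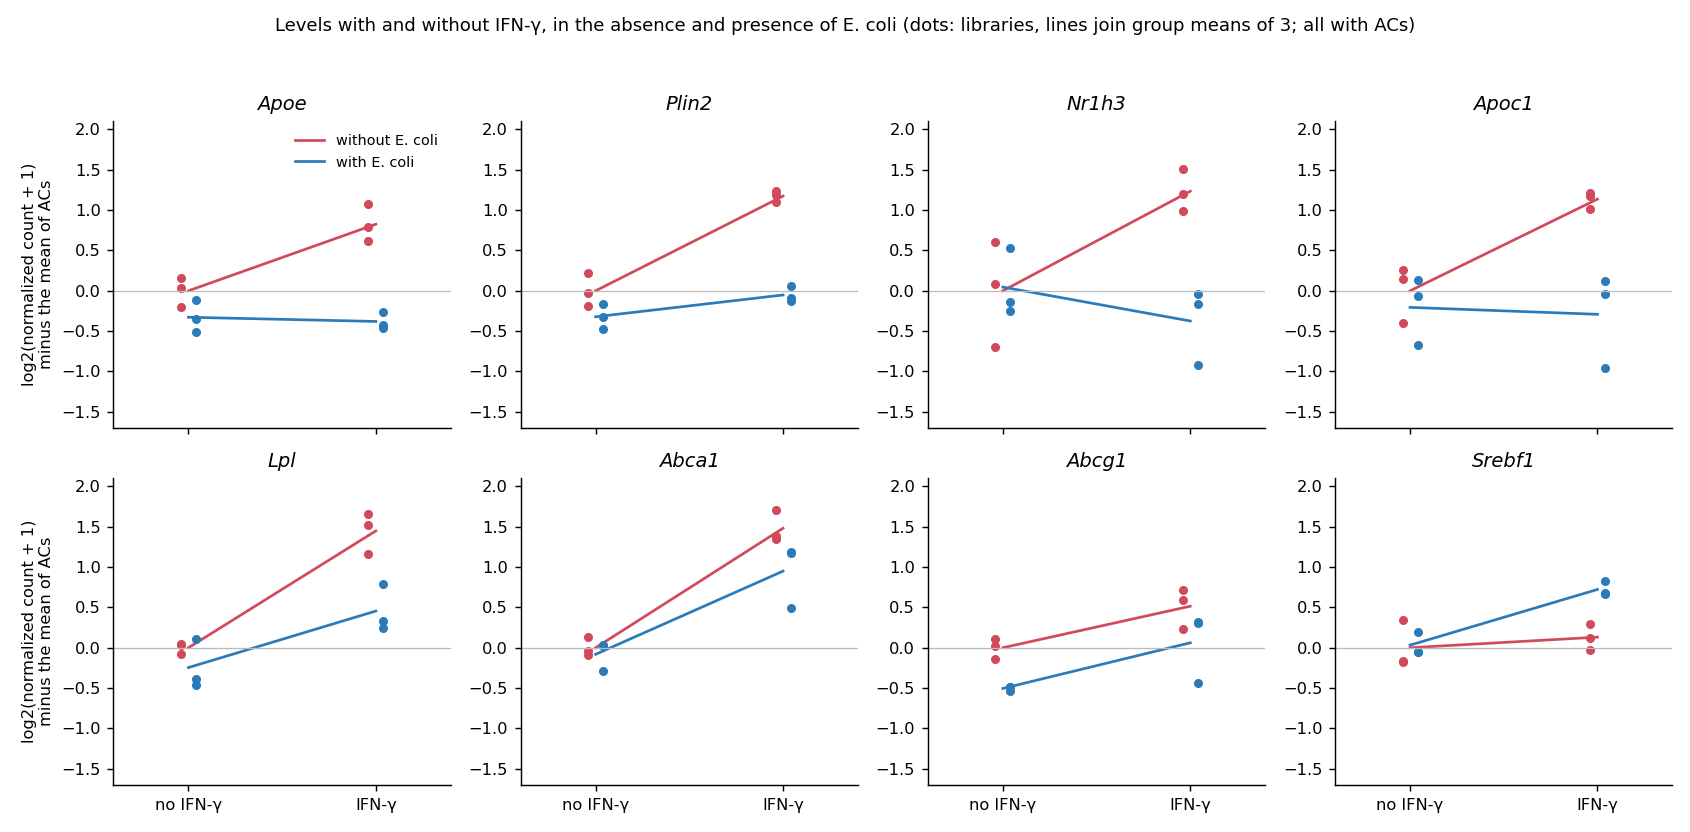
Log2 of the normalized count plus 1, minus the mean of the ACs libraries (vertical axis), without and with IFN-γ (horizontal axis), in the absence (red) and presence (blue) of E. coli, for 8 members of the Type 1 experiment. Dots are libraries and lines join the group means. For Apoe, Plin2 and Nr1h3 the red line rises. The blue line is nearly level for Apoe, falls for Nr1h3 and rises for Plin2 by 0.27, less than the red line. For Abca1 both lines rise.

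Markers of macrophages and eosinophils moved with several of these genes. The summed macrophage markers were 23742 to 30278 with ACs, 20017 to 24164 with E. coli, 37051 to 48076 with IFN-γ and 19168 to 21494 with the combination. The means of Apoe ran in this order too, but the place of E. coli in the order of the sums rested on Cd14. That marker had a mean of 11059 with E. coli, against 5859 with ACs and 7306 with the combination. With IFN-γ 4 of the 12 macrophage markers were past the threshold and higher (Marco by 2.17, Timd4 by 1.00, Lyz2 by 0.95 and C1qb by 0.90 on the log2 scale), 1 was lower (Vsig4, -0.68) and 7 did not pass. With the combination 2 were higher and 6 lower, and with E. coli 1 was higher and 6 lower. The summed eosinophil markers were 15598 to 17065 with ACs, 15769 to 16514 with E. coli, 9666 to 10839 with IFN-γ and 13616 to 16121 with the combination. Of the 6 tested, 3 were lower with IFN-γ (Siglecf at -0.99, Alox15 at -0.79 and Il5ra at -0.71) and 3 did not pass. With the combination 2 were lower (Siglecf at -0.76 and Ear2 at -3.38) and 4 did not pass. With E. coli 1 was lower and 5 did not pass. Ccr3 had a mean of 4498 with the combination and 4254 with E. coli, against 3275 with ACs. Ear2 passed the filter only through the ACs libraries (mean 26.4, against 2.14 with the combination), so its call is no independent support. In the IL-4 experiment the macrophage sum was 31084 to 44848 with ACs and 25064 to 41202 with IL-4, and the shallow library was the highest of each group, as for Apoe. The part of these markers in the changes of the members was not tested.

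**Figure D4:**
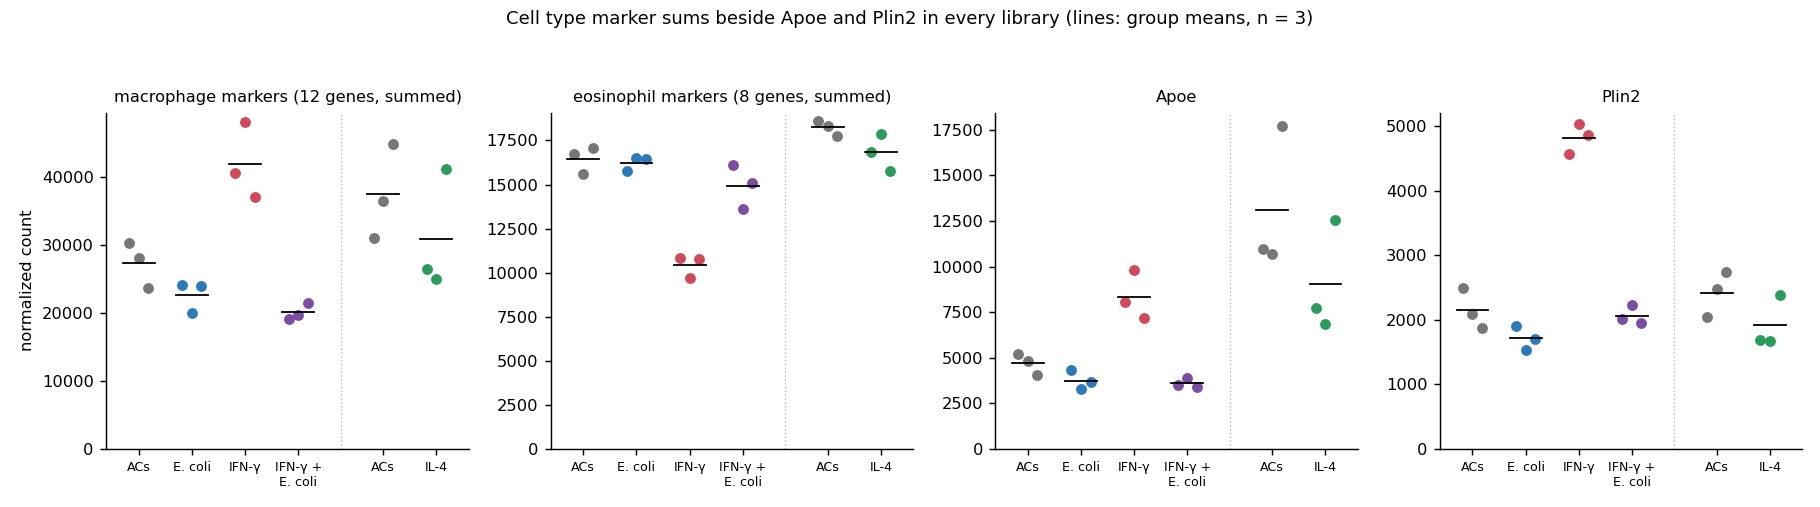
Summed normalized counts of 12 macrophage markers and of 8 eosinophil markers, and normalized counts of Apoe and Plin2 (vertical axes, from 0), in each library (dots) by condition, with group means as lines. With IFN-γ the macrophage sum, Apoe and Plin2 are the highest of the Type 1 experiment and the eosinophil sum is the lowest, at 9666 to 10839.

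The responses to IL-4 and to IFN-γ were compared by a test of their difference, each taken over its own ACs libraries. This test used 1 fit of all 18 libraries, in which the experiments shared an estimate of the spread. The IL-4 response was lower for 5 of 9 members, beside 14.3% of all genes tested: Apoc1 by a log2 difference of -2.12 (SE 0.59, adjusted p = 0.017, limma), Abca1 by -1.98 (SE 0.26, adjusted p = 1.6e-05), Plin2 by -1.52 (SE 0.20, adjusted p = 1.8e-05), Lpl by -1.503 (SE 0.25, adjusted p = 0.00025) and Apoe by -1.37 (SE 0.28, adjusted p = 0.0019). The Apoc1 difference rests on few reads, with 1 read with IL-4 and 3 reads with ACs in the shallow libraries. Its call with IFN-γ over ACs was lost when any 1 of the 6 libraries was left out. Against the response to the combination the IL-4 response was lower for Abca1 alone, at -1.45 (SE 0.26, adjusted p = 0.00036, limma), beside 20.4% of all genes. The experiments differed in their ACs libraries too: the ACs mean of the IL-4 experiment was 3.25 times that of the Type 1 experiment for Lpl, 2.79 times for Apoe, 1.41 times for Abca1 and 0.430 times for Mylip. Differences between the experiments in preparation and in these starting levels cannot be told apart.

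Over all 18 libraries, each set against the ACs of its own experiment, Apoe ran closest among the members to Plin2 (Pearson r = 0.93) and Nr1h3 (0.89), and Lpl to Plin2 (0.89) and Abca1 (0.89). Srebf1 had r between -0.31 and 0.25 with the other members. These and the following r are descriptions across 18 libraries that share conditions and depth, with no test. Among the 6907 genes with a mean of at least 50, those most like Abca1 were Ifit2, an interferon-induced gene (0.98), Stxbp3, a syntaxin-binding protein gene (0.97), and the necroptosis effector Mlkl (0.95). Closest to Apoe were Agtrap (0.95), the macrophage marker Lyz2, a lysozyme gene (0.94), and Fblim1 (0.93). Plin2 was closest to Cstb, a protease inhibitor gene (0.96), the lysosomal protease Ctsb (0.96) and the lysosomal galactosidase Gla (0.96). Pparg, with few reads, was closest to the splicing factor U2af1 (0.88), Emg1 (0.84) and Dera (0.84).

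The surrounding pathways were followed with 7 lists of 69 genes. Of the 48 tested in the Type 1 experiment, 9 were higher and 4 lower with IFN-γ, 7 higher and 5 lower with E. coli, and 10 higher and 13 lower with the combination, with median log2 changes of 0.09, -0.12 and -0.10. The shares of all genes past the threshold in these comparisons were 21.4%, 10.3% and 31.9%. With IL-4 0 of the 50 tested passed with limma, beside 1.09% of all genes, and the median was -0.17. Nothing particular to the lists was read from these counts.

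Among the partners and co-factors of LXR, Nr1h2, the gene of LXRβ, was higher with the combination (0.76, adjusted p = 0.00095, limma). With E. coli and with IL-4 0 of the 8 passed with limma. Of 12 other LXR target genes tested, Mertk, a receptor for apoptotic cells, was higher with IFN-γ (1.81, adjusted p = 4.5e-07, limma), as was the lysosomal cholesterol carrier Npc2 (0.59). Acaca, which starts fatty acid synthesis, was lower with E. coli (-1.69) and with the combination (-1.61), and Arl4c was higher with both (0.98 and 0.73). With E. coli the desaturase gene Scd2 was lower (-1.09) and the phospholipid remodelling gene Lpcat3 higher (0.64). With the combination 2 were higher and 4 lower, including Cd5l (-1.34) and the elongase gene Elovl5 (-0.74).

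Among PPAR receptors Ppard, the gene of PPARδ, was higher with IFN-γ (1.25, adjusted p = 0.00061, limma) and with the combination (1.23). Of 11 PPAR target genes tested, 4 were higher and 1 lower with IFN-γ, with Hilpda, an inhibitor of droplet lipolysis, at 3.37 (SE 0.15, adjusted p = 2.6e-12), the fatty acid carrier Fabp5 at 1.20, and the fatty acid oxidation gene Acadl at 0.78. Hilpda had a mean of 198 with ACs and 2050 with IFN-γ, but already 1651 with ACs in the IL-4 experiment. With E. coli 2 were higher and 3 lower, including the scavenger receptor genes Olr1 (1.57) and Cd36 (-1.56), Fabp5 (-1.34) and Cpt1a (-1.19). With the combination 3 were higher and 4 lower, with Hilpda at 3.01, Cd36 at -2.64, Olr1 at 2.33 and Acadm at -1.38.

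The 12 genes tested for lipid droplets and cholesteryl esters split in direction. With IFN-γ the lysosomal acid lipase gene Lipa (1.46, adjusted p = 6.5e-07, limma) and the cholesterol esterifying enzyme gene Soat1 (1.18) were higher, and the monoglyceride lipase gene Mgll (-1.14) was lower. The lipolysis inhibitor gene G0s2 was also counted as lower, at -2.31, but its mean passed the filter only through the ACs libraries (22.5 ± 1.81, against 3.89 ± 1.51 with IFN-γ, SD, n = 3), so its call is no independent support. With E. coli the triglyceride synthesis gene Dgat2 (2.88, adjusted p = 0.00022) and Mgll (0.62) were higher and 0 were lower with limma. Dgat2 passed the filter only through the conditions with E. coli, with group means of 8.21 with ACs, 7.12 with IFN-γ, 59.5 with E. coli and 32.1 with the combination. With the combination 2 were higher and 4 lower, with G0s2 (the same limit holds) at -2.19, Dgat2 at 1.97, the cholesteryl ester hydrolase gene Nceh1 at -1.27 and the droplet coat gene Plin3 at -1.19. The 1 LPL partner tested, of 3 listed, did not pass in any of the 4 comparisons.

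**Figure D5:**
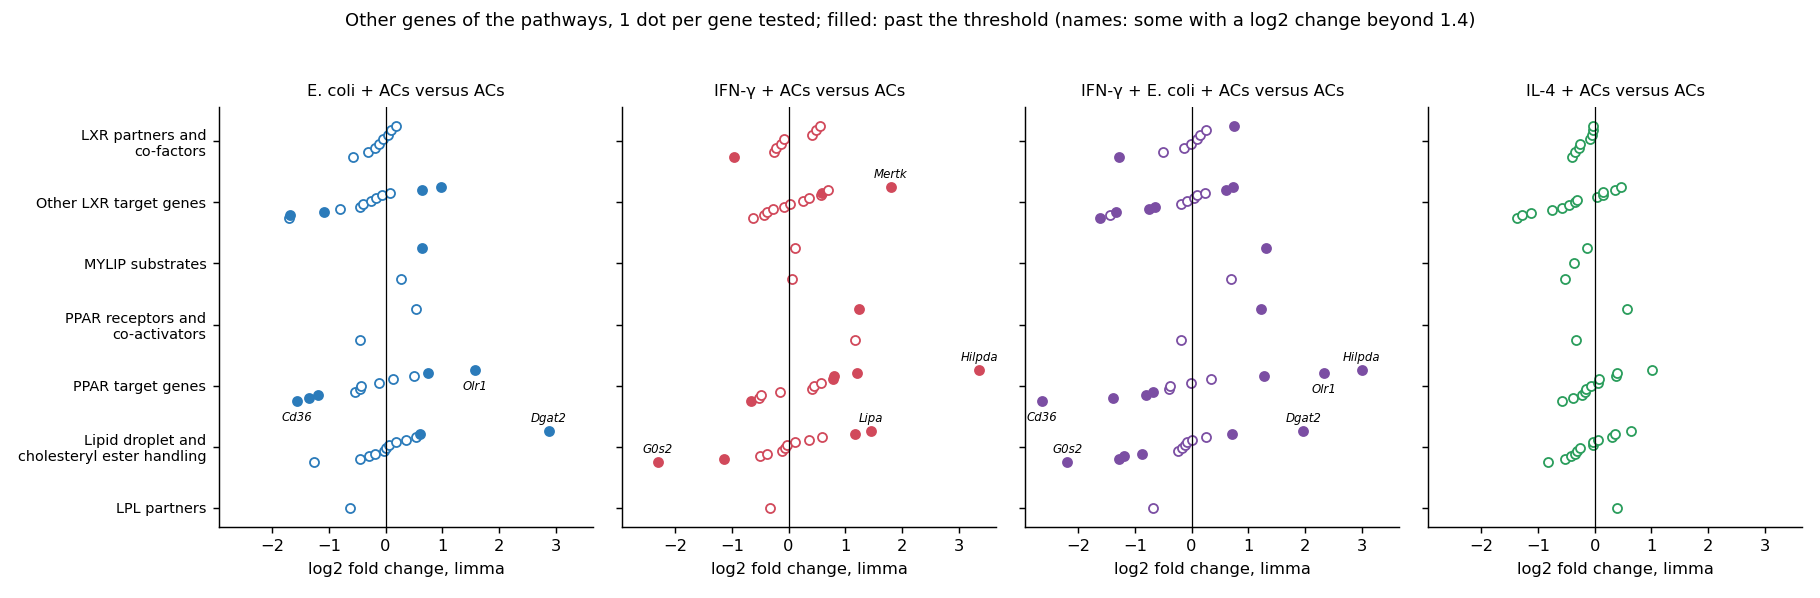
Log2 fold change (horizontal axis, limma) over the ACs of the same experiment for each gene tested in 7 pathway lists (rows), filled where past the threshold. With IFN-γ Hilpda lies at 3.37 and Mertk at 1.81, with the combination 13 genes are lower, and no point is filled with IL-4.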

How the data were processed

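Eosinophil transcripts were sequenced in 18 libraries (6 conditions of 3). The deposited values are a signal: counts that the authors divided by DESeq2 size factors. The submitters' processing notes name Trim Galore, cutadapt 1.10, FastQC 0.11.5, TopHat2 2.1.0, Bowtie2 2.2.6, HTSeq 0.6.1, DESeq2 1.26.0 and GRCm38, whereas the study's methods also describe a fastp and STAR pipeline, and which of them made this table is not given in the sources used here. Whole reads were recovered for 100.0% of values (tolerance 0.1 read). Symbols were found for 54409 of 54446 identifiers. Replicate libraries differed by more than sampling noise (chi-square per degree of freedom 3.92 to 13.15). The replicates are biological according to the study's methods.

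Each experiment was fitted separately with limma 3.58.1 (R 4.3.3, mean-variance trend) on log2(value + 1), for genes with a mean of at least 10, without a replicate block. Comparisons of the IL-4 response with a Type 1 response instead always used 1 fit of all 18 libraries, with a shared estimate of the spread. Fold changes on this scale understate those of low genes. Calls needed a 1.5-fold change and an adjusted p (Benjamini-Hochberg) under 0.05. Alternatives were a pseudocount of 5, no filter, a minimum mean of 50, no fold threshold, a replicate block, upper quartile rescaling, array weights, all 18 libraries in 1 fit, count tests on the recovered reads (edgeR 4.0.16, DESeq2 1.42.0), and leaving out each library. The fits were tested on simulated data. Same-numbered libraries had residual correlations of -0.089 to 0.085 in the Type 1 experiment and 0.001 to 0.021 in the IL-4 experiment. Limits from reads cover counting error only. Genes named beyond the members were the up to 4 called genes with the largest change per list and comparison, and the 3 genes most like each of 4 members. Some list genes that this rule names are not reported here. The members and lists were chosen with earlier results of these data known.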

Additional observations from a re-analysis of the deposited data

Results flagged for a closer look

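For 3 members the effect of IFN-γ differed with and without E. coli by the interaction test (limma): Apoe at -0.88 (adjusted p = 0.0072), Plin2 at -0.90 (adjusted p = 0.0023) and Nr1h3 at -1.65 (adjusted p = 0.033) on the log2 scale. Not all of these calls held in 1 fit of all 18 libraries, and 2 to 4 members passed on leaving out 1 library. For 5 members the response to IL-4 was below that to IFN-γ: Abca1 at -1.98 (adjusted p = 1.6e-05), Apoe at -1.37 (adjusted p = 0.0019), Apoc1 at -2.12 (adjusted p = 0.017), Lpl at -1.50 (adjusted p = 0.00025) and Plin2 at -1.52 (adjusted p = 1.8e-05). Abca1 also responded less to IL-4 than to the combination, at -1.45 (adjusted p = 0.00036). The Apoc1 difference rests on few reads, with 1 read with IL-4 and 3 reads with ACs in the shallow libraries. IL-4 and IFN-γ were given in separate experiments with different ACs libraries. Groups of 3 were not tested for outlying libraries.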

How the results depend on the processing

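Outside the leave-one-out fits, 350 of the members' log2 changes kept their direction and side of the threshold, 3 lost and 5 gained the call and 6 reversed; none of the 6 reversed values was past the threshold. Apoc1 with IFN-γ lost its call with no filter (adjusted p = 0.082, limma) and in 1 fit of all 18 libraries (adjusted p = 0.053), and Srebf1 with the combination after upper quartile rescaling (0.58). Upper quartile rescaling turned Mylip with E. coli to -0.018 and Abcg1 with the combination to -0.078. Nr1h3 with E. coli was -0.013 with edgeR and -0.012 with DESeq2. With IL-4, Srebf1 was -0.033 with array weights and -0.075 without the 2 shallow libraries, and Mylip was called higher with array weights (0.71, adjusted p = 0.0031). The causes were not tested.

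Members called with the combination were 4 with no fold threshold and 1 after upper quartile rescaling, and over E. coli 5 with no fold threshold. With IL-4 they were 1 with array weights and 2 without the 2 shallow libraries, of which Pparg passed the filter only through its IL-4 libraries. For the IL-4 response minus that to the combination they were 2 under each of these, and 1 to 2 on leaving out 1 library. The interaction had 1 in 1 fit of all 18 libraries. All genes called with IL-4 numbered 116, against 208 with no filter, 212 with edgeR, 209 with DESeq2, 745 with array weights, 221 in 1 fit of all 18 libraries, 656 without the 2 shallow libraries and 47 to 130 on leaving out 1 library. The interaction was called for 495 genes in 1 fit of all 18 libraries and 400 to 1026 on leaving out 1 library (756 otherwise), and the IL-4 response minus the IFN-γ response for 2423 with array weights (1486 otherwise).

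With the replicate block 74 genes passed with IL-4. Members passing under the block were 5 for the combination against IFN-γ and 6 for the IL-4 response minus the IFN-γ response, and the libraries share only a number. On leaving out 1 library, changes with E. coli ranged over 0 for Abca1 (-0.138 to 0.025), Mylip (-0.035 to 0.088), Srebf1 (-0.055 to 0.203), Apoc1 (-0.404 to 0.030) and Nr1h3 (-0.300 to 0.348). The same held with IFN-γ for Mylip (-0.028 to 0.303), with the combination for Abcg1 (-0.066 to 0.309), Apoc1 (-0.501 to 0.044) and Plin2 (-0.146 to 0.057), and with IL-4 for Mylip (-0.045 to 0.555), Srebf1 (-0.049 to 0.329) and Lpl (-0.148 to 0.038). Nr1h3 with IFN-γ ranged from 0.89 to 1.54. Pparg and Apoc1 are limited by depth.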

Other observations

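Markers of other cells moved in places too. Cpa3, a mast cell protease gene, was higher with IFN-γ (2.75, adjusted p = 0.0062, limma) and with the combination (3.04), with summed mast cell markers of 5.64 to 66.5 over the 18 libraries. The neutrophil marker Cxcr2 was higher with E. coli (2.68) and the combination (1.94), and Ly6g with IFN-γ (2.16) and the combination (2.01), where Retnlg was lower (-0.86). Cpa3 and Ly6g passed the filter on low values only through the conditions in which they were high, with means of 4.07 and 3.74 with ACs, so their calls are no independent support. The dendritic cell marker Itgax was higher with E. coli (0.88) and the combination (0.74). No thymocyte or B cell marker tested passed in any of the 4 comparisons with ACs. Those tested were only 3 of the 12 thymocyte markers (2 with IL-4) and 1 of the 4 B cell markers. With IL-4 the eosinophil ribonuclease gene Ear2 was higher (2.12, adjusted p = 0.017), and the macrophage markers Marco (-2.58) and Vsig4 (-1.36) were lower.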
